A study of Mus musculus with 89 samples.

Results

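Genes for the nuclear-encoded subunits of the mitochondrial respiratory chain were followed through spatially profiled regions of mouse squamous cell carcinoma that the labels call neutrophil. They were taken by name: every target that starts with Ndufa, Ndufb, Ndufc, Ndufs, Ndufv, Uqcr, Cox4, Cox5, Cox6, Cox7, Cox8 or Atp5, without the Ndufaf assembly factors. This gave 83 of 19962 targets, of which 40 carry complex I names (Nduf), 8 complex III names (Uqcr), 18 complex IV names (Cox) and 17 complex V names (Atp5). A RefSeq symbol matched 82 of them, on 19 chromosomes and all protein coding; Ndufb11b was not matched.

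Complex I takes electrons from NADH, complex III passes them from ubiquinol to cytochrome c, and complex IV hands them to oxygen; the proton gradient built on the way drives complex V, the ATP synthase. Most subunits are encoded in the nucleus and have to be made together with a mitochondrially encoded core. Mature neutrophils are known for having few mitochondria and for drawing much of their energy from glycolysis.

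Expression was read with the GeoMx digital spatial profiler, in which ultraviolet light releases oligonucleotide tags from a chosen region of a tissue section and the tags are counted by sequencing. There were 89 regions, called segments. The authors' class column puts 42 of them in naive classes, before treatment (15 in stroma, 13 at the interface with the tumour, 14 within the tumour), 11 in acute classes (9 stroma, 2 interface) and 36 in relapse classes (14 stroma, 22 interface), both after treatment. The naming of the last 2 slides is unsettled: the one whose classes and scan name say relapse is called treated in the slide column, and treated is also the scan name of the acute slide. The class column is followed here. The tumours are described as spontaneous and the treatment as immunotherapy; strain, agent, time and the number of animals are not given in the sources used here. A stage has 1 slide, from which it cannot be told apart, and the scan names give different tumour models for the naive and the relapse slide. Segments also share tissue pieces, of which 14 could be separated by scan position (5 naive, 5 acute, 4 relapse), and p-values over segments are therefore too small wherever they are given.

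Depth, the tag counts of a segment summed after taking off the floor of 1, ran from 574 to 208675 around a median of 7216. Class medians were 10737 in naive stroma, 18307 at the naive interface, 4439 within the naive tumour, 64652 in acute stroma, 50362 at the acute interface, 3964 in relapse stroma and 3570 at the relapse interface. The 15 neutrophil markers together held 0.0797% of all counts, against 0.0751% for 15 average targets; S100a8 exceeded the limit of quantitation in 44 segments and Ly6g in 6. Fibroblast and macrophage markers stood at 16.3 and 6.24 times the panel average, so these lists stood above the markers of the labelled cell type. In such data fewer cells of a type and less RNA per cell cannot be told apart.

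Promoter sequence is shown for 3 members that passed the test for a lower level at the naive interface (below) and that hold a known motif of respiratory chain promoters; they were chosen after their values were seen. The letters searched, on both strands, were the 10-letter consensus of the nuclear respiratory factor NRF1 (in capitals in Ndufs5), CCGGAAG for ETS factors and CCAAT for NF-Y. Each run gives the 250 bases before the RefSeq start on GRCm38.p6, read 5′ to 3′ on the gene's strand, with matches in capitals; no base fell in 2 motifs. Atp5b (chr10:128083057-128083306, plus strand) encodes the catalytic beta subunit of the ATP synthase, Atp5h (chr11:115419920-115420169, minus strand) a subunit of its peripheral stalk, and Ndufs5 (chr4:123718187-123718436, minus strand) an accessory subunit of complex I.
Atp5b: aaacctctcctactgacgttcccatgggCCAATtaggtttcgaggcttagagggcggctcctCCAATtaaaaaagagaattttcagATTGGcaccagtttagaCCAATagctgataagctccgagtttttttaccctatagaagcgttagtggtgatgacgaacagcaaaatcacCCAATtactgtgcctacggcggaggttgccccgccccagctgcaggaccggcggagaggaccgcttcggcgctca
Atp5h: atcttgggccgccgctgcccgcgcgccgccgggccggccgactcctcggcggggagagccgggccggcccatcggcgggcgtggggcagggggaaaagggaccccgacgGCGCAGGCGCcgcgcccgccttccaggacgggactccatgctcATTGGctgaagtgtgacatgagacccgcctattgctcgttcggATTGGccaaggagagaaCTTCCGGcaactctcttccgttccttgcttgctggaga
Ndufs5: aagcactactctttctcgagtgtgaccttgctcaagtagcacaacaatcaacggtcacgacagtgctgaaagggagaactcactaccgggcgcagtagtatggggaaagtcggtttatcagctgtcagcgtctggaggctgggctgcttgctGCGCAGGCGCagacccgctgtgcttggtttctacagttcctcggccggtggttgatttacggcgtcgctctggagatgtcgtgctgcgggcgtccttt

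Atp5b holds 5 CCAAT letters and neither of the other motifs, Atp5h holds all 3 kinds, and Ndufs5 holds 1 NRF1 match alone. Of the 10 called members 8 had a promoter entry; the NRF1 letters were in 2 of these, the ETS letters in 2 and CCAAT in 3 (Atp5e, not printed, holds the last 2), and Atp5pb, Ndufab1, Ndufa1 and Ndufb1 held none of them. Over the 72 promoter entries of 67 members, the NRF1 letters were in 16.7%, against 3.74% of all 32851 promoters. The ETS letters were in 15.3% against 6.91% and CCAAT in 40.3% against 33.8%. Members' promoters had a median GC content of 56%, against 52.4% for all.

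Respiratory chain transcripts were measured close to the floor. A value counted as quantified when its count exceeded the limit of quantitation, set by the segment's negative probes (their geometric mean, multiplied by the squared geometric SD) but never under 2 counts. This held for 13.5% of member values and 8.35% of all values, and 62.8% of member values were at the floor. The number of members quantified per segment ran from 0 to 48, with a median of 17 in naive stroma, 14 at the naive interface, 5 within the naive tumour, 7 in acute stroma, 4.5 in relapse stroma and 4 at the relapse interface. Testing needed a target to be quantified in 10% of segments or more, and 45 members met this (17 of complex I, 1 of complex III, 14 of complex IV, 13 of complex V). That is 54.2% of members and 25.5% of all targets. The other 38 were quantified in 8 segments or fewer and support no statement on change. Segments of all classes count towards the filter, so a member can pass largely through a class where it is high.

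Together the 83 genes held 0.53% of all counts, against 0.416% for as many average targets. In naive stroma the share per segment ran from 0.358% to 0.766% with a median of 0.566%, and the pooled share was 0.592% (exact binomial 95% interval 0.569 to 0.615, counting error only). At the naive interface it ran from 0.355% to 0.566% (median 0.445%, pooled 0.44%, interval 0.417 to 0.464). Stroma segments thus reached higher, but the ranges overlapped over most of their length. Within the naive tumour shares ran from 0.279% to 1.01% (median 0.499%, pooled 0.503%, interval 0.464 to 0.545).

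After treatment, acute stroma ran from 0.327% to 0.665% (median 0.538%, pooled 0.547%, interval 0.529 to 0.565). The 2 acute interface segments were at 0.407% and 0.639%. Relapse stroma ran from 0.217% to 0.723% (median 0.457%, pooled 0.446%, interval 0.403 to 0.493) and the relapse interface from 0.174% to 1.26% (median 0.535%, pooled 0.549%, interval 0.505 to 0.597). The pooled order from low to high was naive interface, relapse stroma, within the naive tumour, acute interface, acute stroma, relapse interface and naive stroma. The SD over segments was between 0.0524 and 0.241 percentage points in the 7 classes. Neighbours in that order are the closest classes by construction, and none differed by more than the SD of either class. Its ends, naive interface at 0.44% and naive stroma at 0.592%, differed by more than both of their SDs (0.0524 and 0.12 percentage points).

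**Figure D1:**
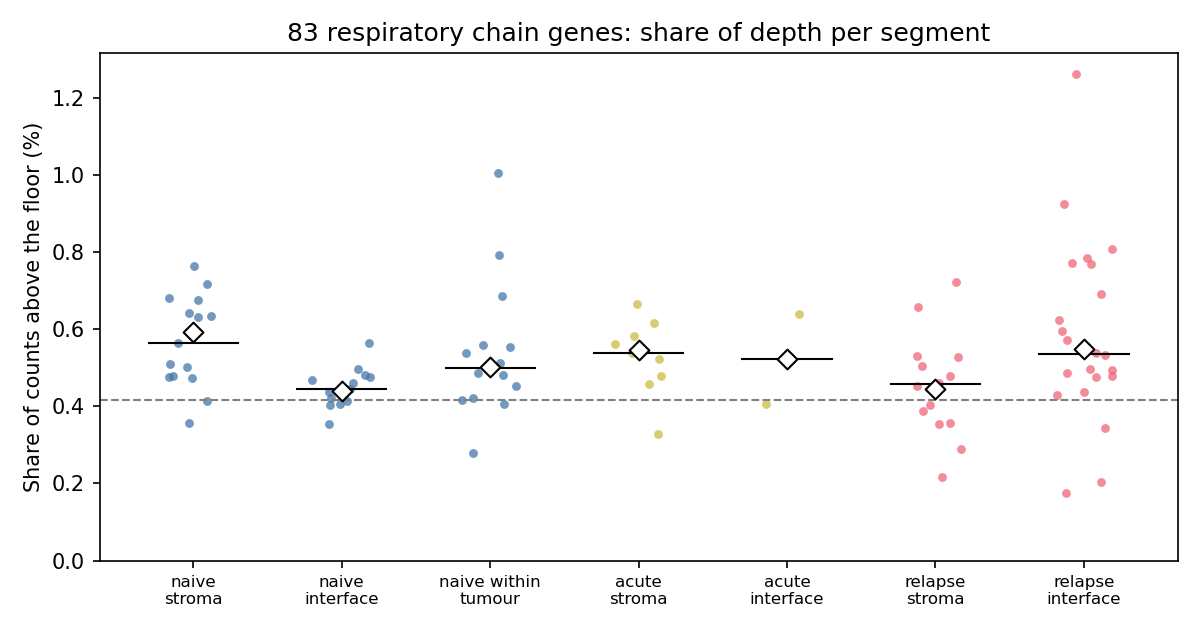
Share of each segment's depth held by the 83 respiratory chain genes (percent, y axis) in the 7 classes (x axis). Points are segments, black lines class medians, open diamonds pooled shares and the dashed line 83 average targets at 0.416%; naive interface segments lie between 0.355% and 0.566%, and relapse interface segments spread from 0.174% to 1.26%.

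The share differed between tissue pieces of the naive slide as much as between locations. Naive stroma pooled to 0.613%, 0.65%, 0.485% and 0.437% in pieces 1, 3, 4 and 5, and the naive interface to 0.566%, 0.435% and 0.439% in pieces 1, 2 and 5. Stroma segments came mostly from pieces 3 and 4 (6 and 4 of 15), where no interface segment lies, and interface segments from piece 5 (8 of 13). Within piece 5 the 8 interface segments were at 0.439% and the 2 stroma segments at 0.437%. Within piece 1 the single interface segment was at 0.566% and the 3 stroma segments at 0.613%. The lower pooled share of the naive interface was therefore not seen within piece 5, and location and piece cannot be fully told apart on this slide. Segments within the tumour, below stroma in the pooled order, were at 0.623%, 0.566% and 0.47% in pieces 1, 4 and 5, above the stroma of the same pieces.

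**Figure D2:**
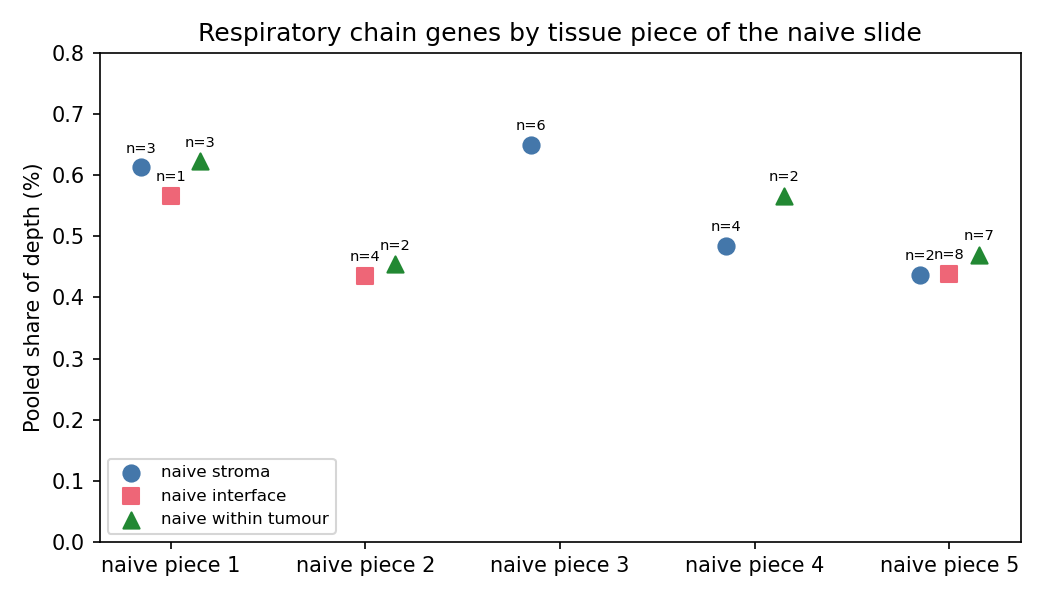
Pooled share of depth of the 83 genes (percent, y axis) in each tissue piece of the naive slide (x axis), by location, with n the number of segments. In piece 5 stroma and interface lie together at 0.437% and 0.439%, while stroma of pieces 1 and 3, at 0.613% and 0.65%, lies above them.

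Complex V stood highest per gene. Its 17 genes held 0.161% of counts, 1.89 times the panel average, against 1.25 times for complex IV, 1.1 times for complex I and 0.901 times for complex III. Complex V was above the other complexes in all 7 classes, from 1.52 times the average at the naive interface to 2.38 times at the relapse interface, and it was above the panel average in 80 of 89 segments. Complex I ran from 0.866 times in relapse stroma to 1.23 times in acute stroma, and complex IV from 0.891 times in relapse stroma to 1.39 times at the relapse interface. These ratios compare tags, whose probes may differ in efficiency, and are not per length.

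**Figure D3:**
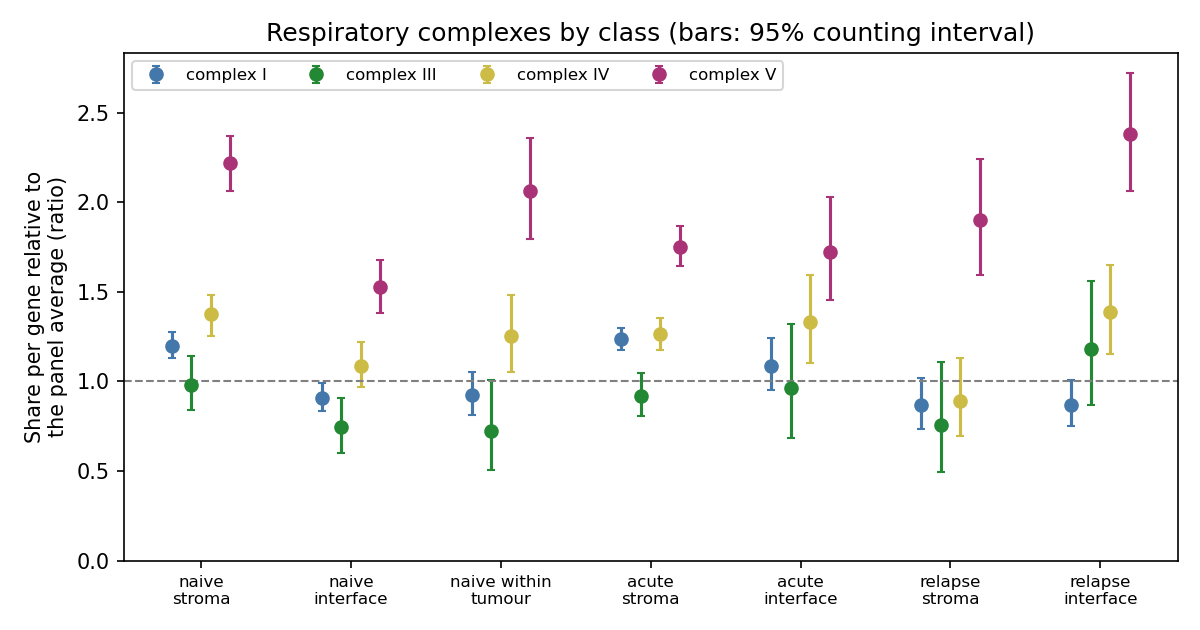
Pooled share per gene of each complex, as a ratio to the average target (y axis, dashed line at 1), in the 7 classes (x axis). Bars are exact 95% counting intervals; complex V points lie between 1.52 and 2.38 and complex I points between 0.866 and 1.23.

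Counts were spread over many members: 11 reached 2 times the panel average, and the 10 highest held 24.5% of the members' counts. Atp5l, a subunit of the ATP synthase's membrane part, was highest at 1.99 counts per 10000 and was quantified in 53 segments. Atp5g1, Atp5g2 and Atp5g3, which encode the same mature c-ring subunit, followed at 1.72, 1.38 and 1.24 per 10000. Atp5a1, the alpha subunit of the catalytic head, was at 1.34, Atp5md at 1.04 and Atp5h at 1.01. In the other complexes Cox6a1, the widely expressed isoform of subunit 6a of cytochrome c oxidase, reached 1.16, Ndufa4 1.11 and Uqcrb, a small complex III subunit, 1.03 per 10000. Ndufa4 was first assigned to complex I, whose name it carries, and is now counted with complex IV.

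The low end held some core subunits. Uqcrc1, a core protein of complex III, was quantified in 0 segments and held 0.261 counts per 10000. Ndufv1, the NADH-binding subunit of complex I, was quantified in 1 segment (0.238 per 10000), Cox8b in 2 and Atp5o, the oligomycin-sensitivity subunit of complex V, in 5. The median member stood at 0.538 and the median target at 0.383 counts per 10000.

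Before treatment, 10 of the 45 tested members were lower at the interface than in stroma and 0 were higher (limma on log2(normalised value + 1), Benjamini-Hochberg over 5087 targets). Over all tested targets 10.2% were called lower, and the median difference was -0.27 for the members and -0.14 for all targets. The 10 were 5 of 13 complex V genes, 4 of 17 complex I genes, 1 of 14 complex IV genes and 0 of 1 complex III gene. Of the 10, only Cox4i1 and Atp5a1 were still called once the floor count was taken off before scaling. None was called with tissue piece as a fixed term, where 15 of all targets were called. In plain means within piece 5, 8 of the 10 were lower at the interface (median log2 difference -0.31). Within piece 1, which has 1 interface segment, 6 were lower (median -0.43), and Atp5e was higher by 1.45. In that segment Atp5a1, Atp5b, Cox4i1, Ndufab1 and Ndufb1 were all at 2.24, the value of a single floor count. The 10 were picked from these same segments and plain means carry the floor, so the signs within pieces are no separate test.

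The deposited value is the count divided by the segment's upper-quartile factor. A single count, the floor itself, is therefore worth 3.74 in 7 of 15 naive stroma segments and in 2 of 13 interface segments, and as little as 0.534 and 0.748 in others. Counts per depth, which do not carry the floor, are given beside the fitted differences.

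Cox4i1 encodes the widely expressed isoform of cytochrome c oxidase subunit 4. Its normalised value in naive stroma ran from 1.87 to 11.2 with a median of 7.48, and at the interface from 1.25 to 4.49 with a median of 1.87. It rose above the floor in 12 of 15 stroma segments and in 5 of 13 interface segments, and 7 against 0 exceeded the limit of quantitation. Over all classes 14 segments exceeded that limit. Without the 7 of naive stroma Cox4i1 would not have reached the 10% needed for testing. The highest stroma segments lay above every interface segment, while the lowest overlapped them. Pooled, it held 1.34 counts per 10000 in stroma (59 counts, interval 1.02 to 1.73) and 0.289 at the interface (9 counts, 0.132 to 0.548). The log2 difference was -1.03 ± 0.187 (SE), with an adjusted p of 1.99e-05 by limma. Of the alternatives in which it was fitted, its call was lost in 1, the fixed term for tissue piece. Cox4i1 was the 1 member still called when segments were scaled to the same total, and the 1 still called without naive piece 5, at -1.15. Within piece 5 its difference was 0.01 and within piece 1 -0.62; with tissue piece as a fixed term it was -0.52 (adjusted p = 0.415, limma).

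The F1 head of the ATP synthase showed the same direction in both of its large subunits. Atp5a1 ran from 1.87 to 18.7 in naive stroma (median 7.48) and from 1.25 to 7.48 at the interface (median 3.74), above the floor in 13 of 15 and 7 of 13 segments. It held 1.77 counts per 10000 in stroma (interval 1.4 to 2.21) and 0.481 at the interface (0.269 to 0.793). Its log2 difference was -1.11 ± 0.233 (SE; adjusted p = 0.000244, limma), -0.75 without naive piece 5, where it was not called. Atp5b ran from 1.87 to 11.2 in stroma (median 3.74) and from 1.25 to 3.74 at the interface (median 1.87). It held 1.09 counts per 10000 in stroma (48 counts) and 0.128 at the interface (4 counts, interval 0.0349 to 0.328), above the floor in 9 of 15 and 3 of 13 segments. Its log2 difference was -0.93 ± 0.221 (SE; adjusted p = 0.00144, limma) and 0.02 within piece 5.

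Of its stalk genes 3 were called. Atp5h fell by 0.82 on the log2 scale (1.68 against 0.769 counts per 10000), Atp5pb, a peripheral stalk subunit, by 0.76 (1 against 0.385) and Atp5e, the epsilon subunit of the central stalk, by 0.61 (0.955 against 0.449). Atp5c1, the gamma subunit of the central stalk, and Atp5j, a peripheral stalk subunit, were not called, with log2 differences of 0.02 and -0.36. The 3 c-ring genes did not pass the test, and Atp5g1 was at 1.55 counts per 10000 in stroma and 2.18 at the interface, a log2 difference of 0.22 ± 0.266 (SE). Atp5l was at 2.07 and 2.21 per 10000.

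The 4 complex I genes called encode accessory subunits. Ndufb1 fell by 0.74 on the log2 scale (0.933 against 0.417 counts per 10000) and Ndufs5 by 0.7 (1.3 against 0.609). Ndufab1, the mitochondrial acyl carrier protein, fell by 0.67 (1.39 against 0.737) and Ndufa1 by 0.6 (0.955 against 0.256). Adjusted p-values of these 4 genes and the 3 stalk genes ran from 0.0043 to 0.0375 in limma.

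**Figure D4:**
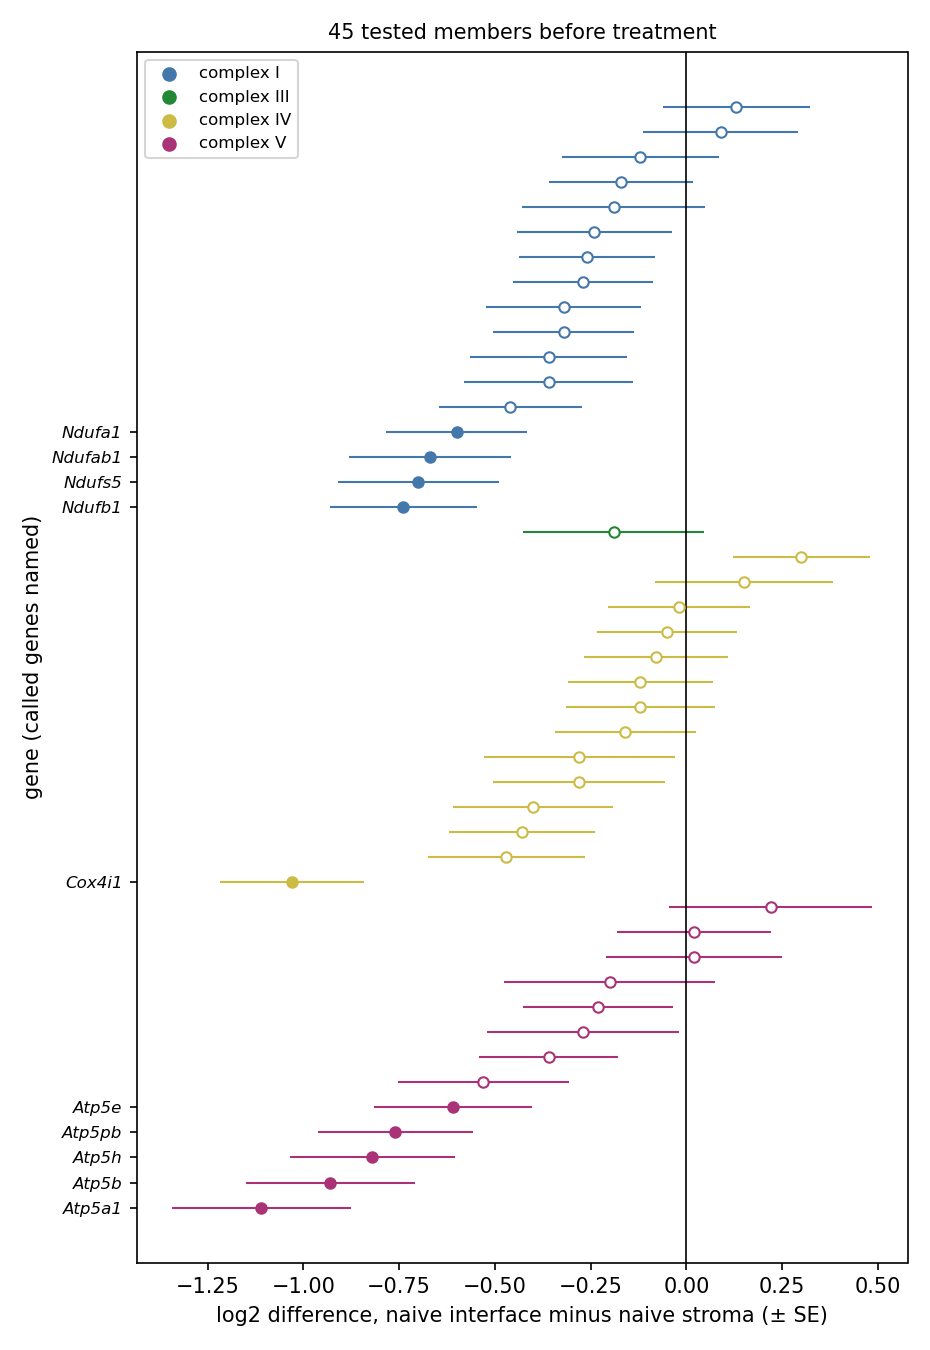
Fitted log2 difference of the 45 tested members, naive interface minus naive stroma (x axis, bars ± SE), ordered within each complex (y axis, 1 gene a row, called genes named). Filled points are the 10 genes with an adjusted p under 0.05; they reach from -0.6 to -1.11, and 38 of the 45 points lie below 0.

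Genes of other cells moved in the same comparison. All 8 fibroblast markers were lower at the interface, with summed shares per segment of 0.15% to 3.42% in stroma and 0.0577% to 3.31% at the interface. Of the 10 macrophage markers 8 were lower (0.0287% to 1.73% against 0.0218% to 2%), and of the 10 tested muscle markers 3 were (0% to 0.811% against 0.0328% to 0.097%). No marker of these 3 lists was at the floor in every segment of either class. Ribosomal protein genes had 11 of 78 lower and glycolytic enzymes 3 of 14 (Ldha, Tpi1 and Aldoa). The part of these cells in the members' differences was not tested.

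Within the naive tumour 3 members were lower than in stroma and 0 higher, against 3.81% of all targets called lower, with member and all-target medians of -0.13 and -0.07. They were Ndufs5 (-0.87 ± 0.216 SE, adjusted p = 0.00553, limma), Cox4i1 (-0.81, adjusted p = 0.0033) and Atp5a1 (-0.8, adjusted p = 0.0309). Cox4i1 was above the floor in 1 of 14 segments within the tumour, Ndufs5 in 3 and Atp5a1 in 3, and Ndufs5 held 6 counts there in all. Naive piece 5 holds 7 of these 14 segments. In plain means within it the difference from stroma was 0.11 for Cox4i1, 0.11 for Atp5a1 and -0.67 for Ndufs5. In naive pieces 1 and 4 all 3 genes were lower than in stroma. These 3 calls were also made with the floor taken off; leaving out 1 tissue piece left between 0 and 4 calls, with 0 without naive piece 5 and 1 each without naive pieces 3 and 4, and 0 were made with tissue piece as a fixed term. Atp5g1 ran the other way, at 3.82 counts per 10000 within the tumour (interval 2.8 to 5.09) against 1.55 in stroma (1.2 to 1.96), and its log2 difference of 0.73 did not pass the adjustment (adjusted p = 0.132, limma). Within the tumour against the interface limma called 0 members and 0% of all targets; 2 members had an unadjusted p under 0.05. Of the fibroblast markers 7 of 8 were lower within the tumour than in stroma (0% to 0.413% per segment against 0.15% to 3.42%), of the macrophage markers 7 of 10 (0% to 8.42% against 0.0287% to 1.73%) and of the tested adipocyte markers 2 of 3 (0% to 0.0257% against 0% to 0.546%), none of them at the floor throughout either class; their part was not tested.

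**Figure D5:**
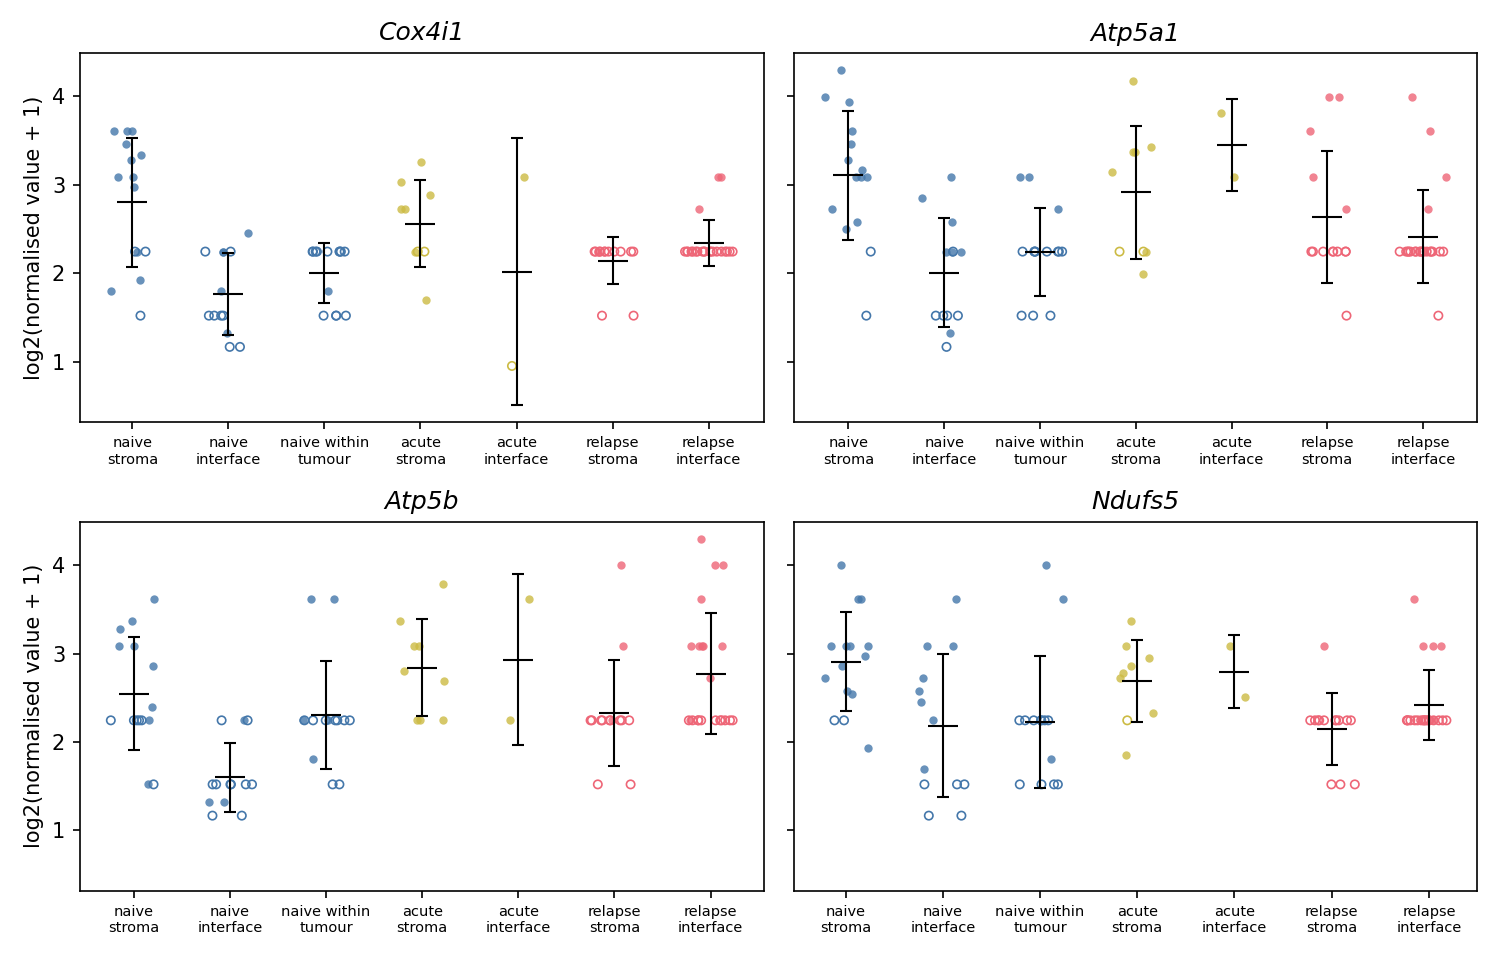
log2(normalised value + 1) of Cox4i1, Atp5a1, Atp5b and Ndufs5 (y axis) in every segment by class (x axis), with class mean and SD. Open circles are segments at the floor of 1 count, whose height depends on the segment's factor alone; Cox4i1 is above the floor in 12 of 15 naive stroma segments and in 5 of 13 naive interface segments.

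After treatment few members were called, as were few of all targets. A member that was not called is not thereby shown to be unchanged. Acute stroma differed from naive stroma in 0 members and 0.118% of all targets (limma; 5 members had an unadjusted p under 0.05). Atp5b, at 1.12 counts per 10000 in acute and 1.09 in naive stroma, and Cox4i1, at 1.03 and 1.34, were not called. Relapse stroma differed from acute stroma in 0 members, against 0.983% of all targets, with 4 at an unadjusted p under 0.05. Taking off the floor called Ndufs5, and scaling to the same total called Ndufa7 in its place.

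Relapse stroma was lower than naive stroma in 2 members, against 1.32% of targets called lower. Ndufs5 was at 3.74 (1.87 to 7.48) in relapse stroma and 6.86 (2.8 to 15) in naive stroma, and above the floor in 1 of 14 against 13 of 15 segments. Its single count in a summed depth of 85835 is 0.117 per 10000 (interval 0.00295 to 0.649), against 1.3 (0.982 to 1.68), and its log2 difference was -0.96 ± 0.217 (SE; adjusted p = 0.00343, limma). Cox4i1 was at 1 count in relapse stroma as well, with a difference of -0.67 (adjusted p = 0.0433, limma). Both calls were lost without relapse piece 3, which holds 9 of the 14 segments (Ndufs5 at -0.85, Cox4i1 at -0.73), and with plate as a covariate; the Cox4i1 call was also lost without any of 4 naive pieces (1 to 4) or of relapse pieces 1 and 4. With 1 piece left out the differences stayed between -1.05 and -0.85 for Ndufs5 and between -0.79 and -0.55 for Cox4i1. Plate G held the whole naive slide and plate H the whole relapse slide, and only acute stroma was split between them (4 and 5 segments). Of the fibroblast markers 6 of 8 were lower in relapse than in naive stroma (0.0686% to 4.25% per segment against 0.15% to 3.42%) and of the macrophage markers 2 of 10 (0% to 2.22% against 0.0287% to 1.73%). Of the 10 tested keratinocyte markers 5 were higher (0.177% to 1.34% against 0.0373% to 0.656%). The part of these cells was not tested.

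At the relapse interface Atp5b was higher than at the naive interface, the 1 member called against 1.42% of targets called higher. It was above the floor in 11 of 22 relapse segments and 3 of 13 naive ones, and held 1.97 counts per 10000 (20 counts, interval 1.2 to 3.04) against 0.128. Its values ran from 3.74 to 18.7 and from 1.25 to 3.74, and 3.74 is also what 1 count is worth in 20 of the 22 relapse segments. The log2 difference was 1.04 ± 0.229 (SE; adjusted p = 0.00273, limma); the difference stayed between 0.92 and 1.14 with 1 piece left out. The call was lost without naive piece 5 (at 1.03), with plate as a covariate and at the same total. The members' median of 0.22, with 0.13 for all targets, became -0.09 and -0.19 at the same total, so the members as a list have no settled direction here. Cox6a1, at 2.95 against 0.898 counts per 10000, and Uqcrb, at 2.17 against 1.12, were not called. Of the 10 tested keratinocyte markers 6 were higher at the relapse than at the naive interface (0.244% to 3.83% per segment against 0.0577% to 0.679%). Ribosomal protein genes pooled to 3.5% at the relapse and 1.76% at the naive interface, and glycolytic enzymes to 0.411% and 0.19%. Some ribosomal protein genes were called higher, as were Eno1, Ldha and Tpi1. The part of these cells and genes was not tested.

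Relapse interface and relapse stroma differed in 0 members and 0% of all targets (limma), and 2 members had an unadjusted p under 0.05. By piece the pooled member share was 0.572% at the interface and 0.452% in stroma in relapse piece 1, 0.545% and 0.473% in piece 3, and 0.43% and 0.217% in piece 4, the last with 1 segment each.

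The interface minus stroma difference was therefore set between relapse and naive directly, as an interaction. It was higher in relapse for 4 members, against 3.5% of targets called higher, with medians of 0.39 for the members and 0.16 for all targets. They were Atp5b (1.35 ± 0.299 SE, adjusted p = 0.0024, limma), Cox4i1 (1.23, adjusted p = 0.00125), Ndufs5 (0.91, adjusted p = 0.0463) and Ndufa1 (0.79, adjusted p = 0.0476). Atp5b and Cox4i1 were called with the floor taken off, at 2.14 and 1.91, and none of the 4 at the same total or with tissue piece as a fixed term. The relapse side lay close to the floor. Relapse stroma held 0.583 counts per 10000 of Atp5b, 0.117 of Cox4i1, 0.117 of Ndufs5 and 0 of Ndufa1. The relapse interface held 1.97, 0.591, 0.788 and 0.394. Leaving out naive piece 5 or relapse piece 3 left 1 call each, and leaving out relapse piece 1 or 4 left 2. In the same interaction 6 of 8 fibroblast markers (median 1.76) and 3 of 10 macrophage markers (median 0.81) were called higher. So were 3 of 10 keratinocyte markers (median 0.83) and 1 of 3 adipocyte markers. Some ribosomal protein genes and the glycolytic enzyme Tpi1 were called higher too. The part of these cells and genes was not tested. Fibroblast markers held 0.0598% to 1.43% per segment at the relapse interface, macrophage markers 0% to 0.685%.

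Pooled over all segments, tissue-restricted isoforms were below their widely expressed partners in all 8 pairs. Single classes did not all keep this order. Within the naive tumour Cox4i2 was at 0.996 counts per 10000 (12 counts, interval 0.515 to 1.74). Cox4i1 was at 0.083 there (1 count, interval 0.0021 to 0.463). In naive stroma they were at 0.409 and 1.34 (18 and 59 counts). Cox4i1 was called lower within the tumour than in stroma, but Cox4i2 was not called (log2 difference 0.26, adjusted p = 0.59, limma). In relapse stroma, with a summed depth of 85835, Cox7a1 was at 0.932 and Cox7a2 at 0.233. Neither was called against naive stroma (log2 differences 0.19 and -0.16, limma). These classes were picked for their values, which rest on few counts. A change of order within a pair was not tested. Of the heart and muscle isoforms, Cox6a2 held 0.516 counts per 10000 against 1.16 for Cox6a1, Cox7a1 0.383 against 0.749 for Cox7a2, and Cox8b 0.277 against 0.765 for Cox8a. The testis isoforms Cox6b2, Cox7b2 and Cox8c held 0.405, 0.355 and 0.388 against 0.521 (Cox6b1), 0.604 (Cox7b) and 0.765 (Cox8a). Cox4i2, the lung isoform of subunit 4, was at 0.433 and Ndufa4l2, a hypoxia-induced relative of Ndufa4, at 0.427. Most of these lie below the panel average of 0.501 and were quantified in 2 to 9 segments. Cox6a2 was at 0.669 counts per 10000 in acute stroma (43 counts, 22 of them in 1 segment) and 0.0985 at the relapse interface (1 count), and relapse stroma held 0 counts, which allows up to 0.35 per 10000 (3 counts). Of the 2 acute interface segments, the one with 0.55% of muscle markers held 9 Cox6a2 counts and the one with 0.0894% held 2, at depths of 50391 and 50333. The other muscle isoforms did not follow as a group, with Cox7a1 at 0 and 2 counts and Cox8b at 3 and 0 in the same segments.

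Most other genes of the pathway were not tested, and few of those tested were called. Of complex II, cytochrome c and cytochrome c1, 2 of 6 genes were tested and 0 called in any of the 9 comparisons, and of 47 assembly factors 8 were tested and 0 called. Of 13 regulators of mitochondrial gene expression 4 were tested and 0 called. Of 13 citric acid cycle genes 4 were tested and 1 was called: Dld, the dihydrolipoamide dehydrogenase shared by the 2-oxoglutarate and pyruvate dehydrogenase complexes. It was lower at the naive interface than in naive stroma (-0.69, adjusted p = 0.0098, limma; 0.256 against 0.819 counts per 10000), higher at the relapse than at the naive interface (0.72, adjusted p = 0.0471) and positive in the interaction (1.02, adjusted p = 0.0137). In the same directions 10.2%, 1.42% and 3.5% of all targets were called. With so few genes tested, these lists cannot be set apart from all targets. The Dld differences all share the naive interface segments, and alternative fits are not given for Dld. None of the 13 mitochondrially encoded subunit genes, searched by symbol, was among the targets. Against 0.53% for the members, 80 cytosolic ribosomal protein genes held 1.98% and 18 glycolytic enzymes 0.219% of counts, or 4.95 and 2.43 times the panel average where the members were at 1.28.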

How the data were processed

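Normalised signal of 19962 targets in 89 segments was deposited by the authors with an annotation of each segment's class. The deposited upper-quartile factor is a ratio; signal times factor gave tag counts, and 99.986% of these were whole within 1e-06. The lowest count was 1, taken as the floor. Depth was the sum of counts above it. The submitters' processing notes name mm10 and Seurat; aligner and counter are not given in the sources used here.

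Differences used limma 3.58.1 in R 4.3.3 (lmFit and eBayes with trend, two-sided) on log2(value + 1), with 7 class means and log2 depth, over 5087 targets, at 0.05. Limma was also run on simulated counts. These were drawn independently for each segment, without tissue pieces, so that run does not cover the sharing of pieces. Tissue pieces were grouped from scan positions with gaps over 7000 position units. Alternatives changed the depth term, filter, pseudocount (0.1), scaling, block, plate, floor and tissue piece. Nothing in the labels pairs segments or says that they are separate animals.

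Members and lists were chosen with earlier results of these data known. Named are members past the threshold, the 10 with most counts, tissue-restricted isoforms with partners, each complex's most and least often quantified member, and pathway genes past the threshold. Others were chosen after their values were seen (Ndufa7, Atp5c1, Atp5j and the marker genes).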

Additional observations from a re-analysis of the deposited data

Results flagged for a closer look

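In acute stroma, 1 of the 9 segments stood apart in each of 2 values, a different segment in each. The lowest share for the 8 complex III genes was 0.00945% of depth, with the next segment at 0.0327%; it is 1 count in a depth of 10587. The highest level of Ndufs5 was 4.74 counts per 10000, with the next at 1.98; it is 1 count in a depth of 2109. Such a gap is expected by chance in about 1 of 20 groups, and 15 were examined. The interface minus stroma difference was higher in relapse than before treatment for Atp5b (1.35 on the log2 scale), Cox4i1 (1.23), Ndufs5 (0.91) and Ndufa1 (0.79), each by limma's interaction test. None of these was called at the same total or with tissue piece as a fixed term. In relapse stroma these genes lay close to the floor.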

How the results depend on the processing

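Of 439 values recomputed for the 20 called member and comparison pairs, 0 changed sign, 330 stayed past the threshold and 109 did not. These include fits without each of the 14 tissue pieces in turn, also pieces that hold no segment of the classes compared. Such fits change only the shared spread and depth slope, so the 330 overstates how far the calls were put to the test. Differences within a single tissue piece are not among the 439, and some of those had the other sign. Of the 10 members called at the naive interface, 6 were lower there in piece 1 and 8 in piece 5. For naive interface minus stroma (10 calls) limma made 1 with the stricter filter of 25% of segments (9 members fitted), 1 at the same total, 6 with a random block for tissue piece, 2 with the floor set to 0, 0 with a fixed block and 1 to 10 with a piece left out. For within tumour minus stroma (3 calls) there were 1 with the stricter filter, 0 with the fixed block and 0 to 4 with a piece left out. For relapse minus naive stroma (2 calls) there was 1 with no filter, a pseudocount of 0.1, the same total or the random block, 0 with the stricter filter or plate, and 0 to 2 with a piece left out. For relapse minus naive interface (1 call) there were 4 without the depth term, 2 with no filter, 0 with the stricter filter, the same total or plate, and 0 to 2 with a piece left out. For relapse minus acute stroma (0 calls) there was 1 with the stricter filter (Atp5g1), the same total or the floor set to 0, and 0 to 2 with a piece left out. For the interaction (4 calls) there were 2 with no filter, the random block or the floor set to 0, 0 with the stricter filter, the same total or the fixed block, and 1 to 5 with a piece left out. Counting the tested members alone gave shares of 0.423% in naive stroma, 0.321% at the naive interface, 0.365% in acute stroma and 0.355% at the acute interface, since fewer genes are summed; without 1 piece the acute interface was 0.407% or 0.639%. The cause of the other changes was not tested. The floor set to 0 and the fixed block were chosen after seeing the data. The edgeR and DESeq2 alternatives on recovered counts were not run. At the median depth 3 counts are 0.0416% of a segment, which limits what single members can show. The labels give no replicate numbers shared between classes, and tissue piece was the block used.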
